A study of Homo sapiens with 6 samples.

Results

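The 50 genes described here encode the small-subunit (SSU) processome and the factors that assemble the 40S ribosomal subunit. They were chosen by name for their place in the pathway, with earlier results of these data known, and each of the 50 names was found among the 61541 genes of the count table. All 50 passed the filter on low counts that left 17678 genes for testing, so that no member is missing from the counts given here. The genes were placed in 10 groups by the subcomplex or step to which their proteins belong.

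The SSU processome is a large nucleolar particle that forms on the precursor of ribosomal RNA while RNA polymerase I is still transcribing it. The UTP-A proteins bind the start of the external spacer first, UTP-B and the U3 small nucleolar ribonucleoprotein follow, and helicases and nucleases then remodel and cut the RNA so that a pre-40S particle is released. A separate set of proteins escorts that particle to the cytoplasm, where the last cut makes mature 18S rRNA. Cells that grow and divide quickly, lymphoma cells among them, make ribosomes at a high rate, and many genes of this pathway are known targets of MYC.

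H9 is a human cutaneous T-cell lymphoma line, here labelled as wild type, and it was treated with vehicle (DMSO, 3 libraries) or with AZD4573, a selective inhibitor of cyclin-dependent kinase 9 (CDK9, 3 libraries). The figure legends of the study give 50 nM for 4 h, and the labels give 4 h for the AZD4573 libraries and no time for DMSO. CDK9 phosphorylates RNA polymerase II and its pausing factors, and the comparison shows which transcript levels differed after its inhibition. For GATA-3 target genes, the paper proposes that less affected transcripts may have a relatively long half-life. Half-lives were not measured here, so a small change does not show that a gene is independent of CDK9. The labels do not say whether libraries of a group came from separate cultures, so the p-values measure the spread between these libraries, which may be technical.

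Total counts ranged from 70367303 to 76571157 with DMSO and from 52101868 to 63795185 with AZD4573. In the deepest library, a count of 0 would allow up to 0.0392 CPM (counts over the library total), a limit that covers counting error only. Of 10 T-cell markers, 9 reached 1 CPM in at least 1 library and CD2 did not. Their summed level was 1346 to 1369 CPM with DMSO and 1388 to 1425 CPM with AZD4573. Markers of other cell types were mostly low, with CD79A the 1 of 4 B-cell markers at 1 CPM or more, EPCAM and CDH1 the 2 of 4 epithelial markers, and 0 of 4 myeloid markers. The summed B-cell markers were 57.6 to 62.8 CPM with DMSO and 87.1 to 94.7 CPM with AZD4573, and the epithelial markers 159 to 176 and 130 to 137 CPM. The part of these differences in the members' values was not tested.

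Promoter sequences from RefSeq (GRCh38.p14), which run from 250 bases before to 50 bases after the start of transcription, matched 44 of the 50 members. DCAF13, DDX52, MPHOSPH10, NOL10, RRP12 and UTP23 had no entry. The canonical E-box CACGTG, the palindrome that MYC and MAX recognise, was present in 19 of the 44 promoters (43.2%), against 7.43% of all 27305 promoters of that length and 9.98% of the 11299 promoters of tested genes. In 12 of the 44 promoters (27.3%) an E-box lay within 20 bases of the start, against 1.10% of all promoters and 1.68% of those of tested genes. The 20-base limit was chosen after the promoters had been read. The windows of 60 bases around these 12 starts are shown to give the place of the E-box in the member promoters that hold it beside the start. Each runs from 40 bases before to 20 bases after the start, 5′ to 3′ on the strand of the gene, with the E-box in capitals, and they are ordered from the lowest to the highest log2 fold change of the gene.
RCL1: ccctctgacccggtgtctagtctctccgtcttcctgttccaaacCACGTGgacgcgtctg
UTP20: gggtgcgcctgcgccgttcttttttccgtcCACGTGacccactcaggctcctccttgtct
UTP18: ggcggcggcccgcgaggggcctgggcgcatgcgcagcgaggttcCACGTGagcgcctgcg
NOL6: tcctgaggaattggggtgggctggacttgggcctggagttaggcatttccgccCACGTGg
PWP2: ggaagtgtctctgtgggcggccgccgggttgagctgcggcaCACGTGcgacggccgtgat
PNO1: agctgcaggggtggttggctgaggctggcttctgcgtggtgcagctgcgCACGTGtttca
RRP9: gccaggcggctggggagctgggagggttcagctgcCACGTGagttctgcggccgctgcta
UTP4: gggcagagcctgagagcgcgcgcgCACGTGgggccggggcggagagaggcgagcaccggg
WDR43: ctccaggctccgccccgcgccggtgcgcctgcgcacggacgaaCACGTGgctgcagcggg
NAT10: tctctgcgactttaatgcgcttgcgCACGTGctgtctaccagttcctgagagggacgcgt
TSR2: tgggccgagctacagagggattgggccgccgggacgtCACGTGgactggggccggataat
UTP25: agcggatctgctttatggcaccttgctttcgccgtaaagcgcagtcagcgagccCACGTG
The windows lie at RCL1 chr9:4792904-4792963 on the plus strand, UTP20 chr12:101280065-101280124 on the plus strand, UTP18 chr17:51260506-51260565 on the plus strand, NOL6 chr9:33473905-33473964 on the minus strand, PWP2 chr21:44107359-44107418 on the plus strand, PNO1 chr2:68157848-68157907 on the plus strand, RRP9 chr3:51941885-51941944 on the minus strand, UTP4 chr16:69132609-69132668 on the plus strand, WDR43 chr2:28894627-28894686 on the plus strand, NAT10 chr11:34105589-34105648 on the plus strand, TSR2 chrX:54440364-54440423 on the plus strand, UTP25 chr1:209827932-209827991 on the plus strand.

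The first base of the E-box was at position 5 in RCL1 and UTP18, at 2 in PWP2 and at 4 in WDR43, counted from the first transcribed base as position 1. In RRP9 the E-box began at position -5 and so spanned the start itself. It was present in 15 of the 36 promoters of genes called lower and in 4 of the 8 others, and an E-box within 20 bases of the start was found in 10 of 36 lower genes and 2 of 7 higher genes. The median log2 fold change was -0.79 for the 19 genes with an E-box and -0.93 for the 25 without one, a difference that was not tested. RCL1, the gene with the lowest value, and UTP25, with nearly the highest, both carry one beside the start.

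Other motifs were searched in the same promoters on both strands. The ETS core CCGGAAG was found in 15 of 44 (34.1%, against 10.7% of all promoters and 19.0% of those of tested genes). It was present in 14 of the 36 promoters of genes called lower and in 1 of the 8 others, a difference that was not tested. DHX37, LTV1, PWP2, RRP9, UTP4, UTP18 and WDR46 hold both an ETS core and an E-box, and WDR46 is the ETS gene that was not called lower. The YY1 core AAGATGGC was found in 9.09% against 3.03% and 5.24%, and the palindromic NRF1 motif in 6.82% against 1.36% and 2.38%. The hexamer AGATAA, which GATA factors recognise, was found in RRP7A alone of the 44 members (2.27%), against 10.5% of all promoters and 5.08% of those of tested genes. The member promoters had a median GC content of 61.8%, and all promoters 58.3%. A match of letters is a description of the sequence and not of binding.

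Upon AZD4573 treatment, transcripts for most of the SSU processome fell. With edgeR's quasi-likelihood test and Benjamini-Hochberg adjustment over all genes, 41 of 50 members were lower and 7 were higher at an adjusted p under 0.05. Of all genes tested, 37.4% were lower and 37.3% were higher. With a fold change of at least 1.5 as well, 37 members were lower and 0 were higher, against 23.7% and 22.7% of all genes. Each AZD4573 library lay below each DMSO library for 41 members and above for 6, against 38.7% and 39% of all genes. The median log2 fold change of the members was -0.87, a loss of 45.2% of the DMSO level, and that of all genes was 0.03. Values ran from -2.36 for RCL1 to 0.58 for NOC4L, with quartiles at -1.14 and -0.57. They were less spread than those of all genes (SD 0.61 against 1.32 on the log2 scale), which ran from -7.53 to 10.84. The genes were not matched for expression level in this comparison.

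The share of all reads that fell on the 50 genes was 0.521% ± 0.00395 with DMSO and 0.303% ± 0.0122 after AZD4573 (SD, n = 3). In bulk RNA, fewer cells and less RNA per cell cannot be told apart. The mRNAs of the mitochondrial genome, which RNA polymerase II does not transcribe, rose from 3.13% ± 0.0929 to 4.85% ± 0.162 (SD, n = 3) of the counts. When the libraries were scaled to those 13 mRNAs in place of TMM, the median of all genes moved to -0.71 and that of the members to -1.60, all 50 members had a negative log2 fold change, and 49 were called lower.

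**Figure D1:**
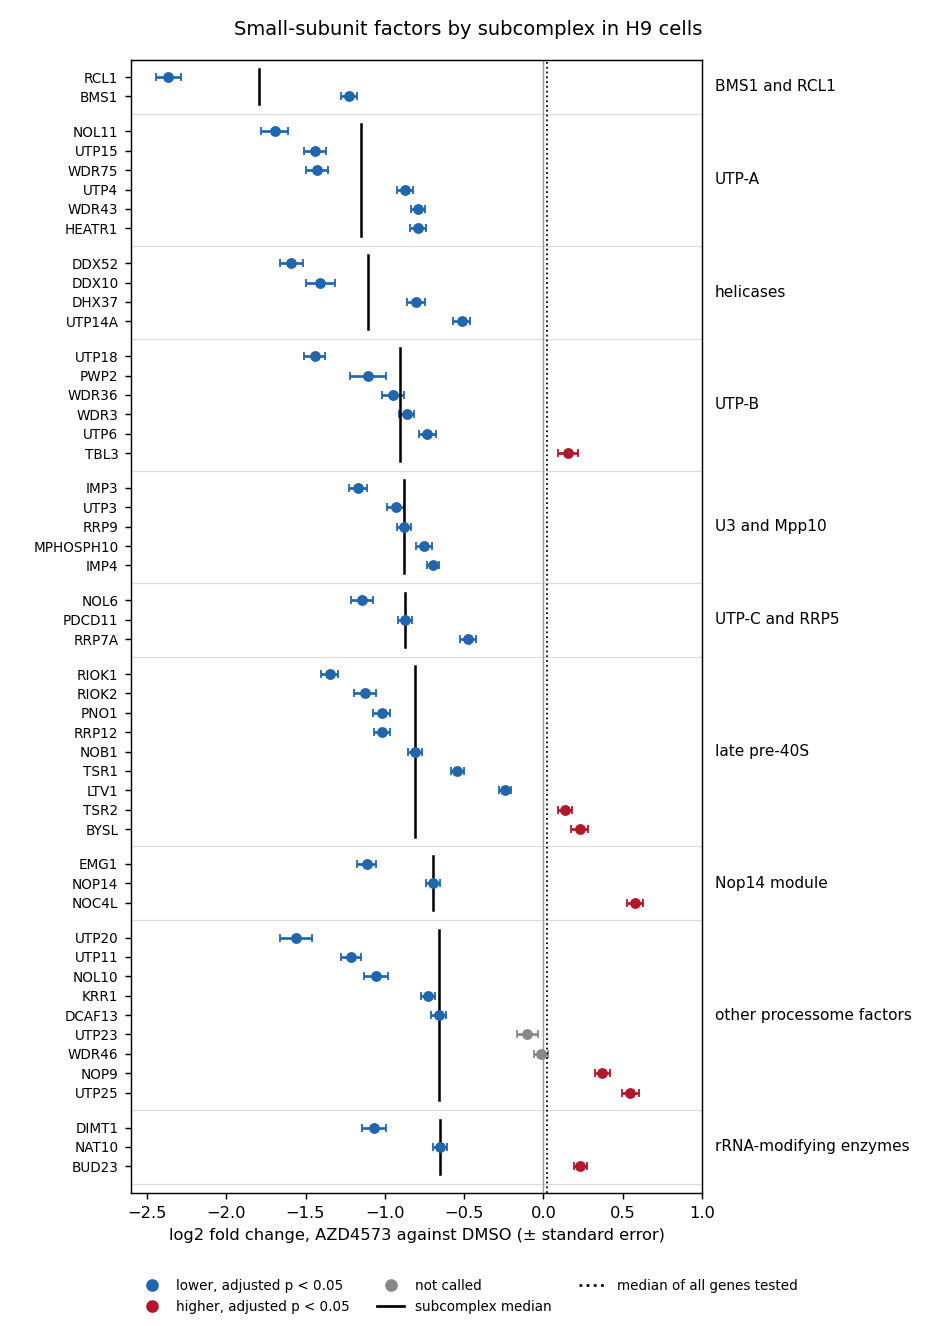
Log2 fold change (AZD4573 against DMSO, TMM scaling, ± standard error) of each of the 50 members, ordered by subcomplex, with the subcomplex median as a black bar and the median of all genes tested (0.03) as a dotted line. The members placed in UTP-A, U3 and Mpp10, the helicases, UTP-C and RRP5, and BMS1 and RCL1 all lie below the dotted line. The 7 red points, which turn negative when scaled to mitochondrial mRNAs, are spread over 5 other groups.

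The groups fell to different extents but overlapped broadly. BMS1 and RCL1 had the lowest median (-1.79), followed by UTP-A (-1.15), the helicases with UTP14A (-1.11), UTP-B (-0.91), U3 and Mpp10 (-0.88), UTP-C with RRP5 (-0.87), the late pre-40S factors (-0.81), the Nop14 module (-0.70), other processome factors (-0.66) and the rRNA-modifying enzymes (-0.65). Within a group, single genes differed by up to 2.11 on the log2 scale, more than the group medians differed from each other, and neighbouring medians are not ranked beyond their order. Without the 12 members that have a pseudogene or retrogene copy, the medians relative to all genes went from -0.69 to -0.13 for the other processome factors, which lost KRR1 and DCAF13, and from -0.68 to -0.23 for the rRNA-modifying enzymes, which lost DIMT1.

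RCL1 and BMS1 work as a pair, since BMS1 is a GTPase that brings RCL1 into the processome. RCL1 had 42.9, 42.3 and 41.7 CPM in the 3 DMSO libraries and 9.41, 7.44 and 7.86 CPM in the 3 AZD4573 libraries. The libraries were tight within each group, and the treated ones lay far below any DMSO library. This was the largest fall among the members, 5.15-fold (log2 fold change -2.36, SE 0.08, adjusted p = 4.3e-11, edgeR's quasi-likelihood test), and 1.64% of all genes tested had a lower log2 fold change. BMS1 was 219 ± 4.75 CPM with DMSO and 93.6 ± 5.52 CPM with AZD4573 (SD, n = 3), a 2.34-fold fall.

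All 6 UTP-A genes were lower, in 2 sets with a gap between them. NOL11, which binds UTP4 and is needed for early rRNA processing, was at 116, 123 and 116 CPM with DMSO and at 43.2, 33.2 and 33.4 CPM with AZD4573 (log2 fold change -1.70, SE 0.08, adjusted p = 7.7e-10). UTP15 and WDR75 were close to it at -1.44 and -1.43. The other 3 fell about as much as the median member, with UTP4 (cirhin) at -0.87, WDR43 at -0.79 and HEATR1 at -0.79. HEATR1, the large scaffold protein of the complex, had 90.7, 96.4 and 99.4 CPM with DMSO against 56.2, 56.8 and 53.0 CPM with AZD4573 (SE 0.05, adjusted p = 9.4e-09). No library of one group overlapped the other for any UTP-A gene.

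The RNA helicases fell in the order DDX52 (-1.59), DDX10 (-1.41) and DHX37 (-0.80), and UTP14A, the protein that activates DHX37, fell least (-0.52). DDX52 was at 59.8, 60.1 and 54.8 CPM with DMSO and at 21.8, 18.0 and 18.3 CPM with AZD4573 (SE 0.07, adjusted p = 4.9e-10). DDX10, which is named in the paper, had 47.6, 45.6 and 43.7 CPM with DMSO and 20.5, 15.0 and 16.3 CPM with AZD4573 (SE 0.09, adjusted p = 1.0e-08). Both helicases were far below DMSO in every treated library, and AZD4573 replicate 1 was the highest of the treated libraries in each. UTP14A, by contrast, had 106, 105 and 104 CPM with DMSO and 78.0, 74.6 and 67.7 CPM with AZD4573 (SE 0.05, adjusted p = 1.0e-06). Its treated libraries spread more widely than its DMSO libraries but did not reach them.

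UTP-B is a complex of 6 proteins, most of them WD-repeat proteins, and 5 of its 6 genes fell. UTP18 was at 138, 128 and 126 CPM with DMSO and 53.9, 46.3 and 44.1 CPM with AZD4573 (log2 fold change -1.44, SE 0.07, adjusted p = 5.7e-10). PWP2 (-1.11, counted without its copy), WDR36 (-0.95), WDR3 (-0.86) and UTP6 (-0.73) followed. TBL3 was the exception, with 51.2, 58.0 and 57.5 CPM with DMSO and 62.9, 66.1 and 56.6 CPM with AZD4573 (0.16, SE 0.07, adjusted p = 0.046). Its groups overlapped, since AZD4573 replicate 3 lay below 2 of the DMSO libraries, and the value turned to -0.58 with mitochondrial scaling. The call was lost when any 1 library other than AZD4573 replicate 3 was left out (adjusted p 0.053 to 0.23), with DESeq2 (0.089), with library size only (0.53) and without a filter (0.11).

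PWP2 has a near-identical second annotated entry on chromosome 21, and the reads of the pair were divided unevenly. Whether the entries are separate genes was not tested. The member gene lies at chr21:44107373-44131181 (GRCh38) and its copy, ENSG00000275464, at chr21:5130871-5154658, with all of the canonical PWP2 transcript matched at 99.8% identity. The copy held 29129 counts over the 6 libraries and PWP2 2518. PWP2 was 8.29 ± 0.298 CPM with DMSO and 3.85 ± 0.621 CPM with AZD4573, and the copy 103 ± 2.03 and 35.4 ± 3.49 CPM (SD, n = 3). With the counts of both entries summed, the level was 111 ± 2.3 CPM with DMSO and 39.2 ± 3.28 CPM with AZD4573 (-1.51, SE 0.06, adjusted p = 1.2e-10, edgeR's quasi-likelihood test), a log2 fold change next to that of UTP18. The sum was formed after the counts had been seen.

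The 5 members in the U3 and Mpp10 group were all lower, in a narrow range. Other proteins of the U3 particle are not members and were counted with the other small-subunit factors. Of these, NOP56 (-0.56) and NOP58 (-0.21) were lower and SNU13 (-0.04) was not called. FBL was higher under TMM scaling (0.43) and at -0.31 with mitochondrial scaling. IMP3, which with IMP4 helps U3 snoRNA pair with the pre-rRNA, had 159, 147 and 143 CPM with DMSO and 67.9, 69.4 and 62.5 CPM with AZD4573 (log2 fold change -1.17, SE 0.05, adjusted p = 5.4e-10). Its partner IMP4 had 206, 202 and 205 CPM with DMSO and 127, 126 and 124 CPM with AZD4573 (-0.70, SE 0.04, adjusted p = 2.3e-09). The libraries of each group were tight in both genes, and the groups were well apart. UTP3 (-0.93), the U3-specific protein RRP9 (-0.88) and the scaffold MPHOSPH10 (-0.75) lay between them. This group had the smallest SD of log2 fold changes of the groups with 3 or more genes (0.18).

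Of the 3 members in UTP-C with RRP5, NOL6 fell most. Other UTP-C proteins are not members and were counted with the other small-subunit factors. Of these, RRP36 (-1.23), CSNK2A2 (-0.53) and CSNK2A1 (-0.39) were lower, and CSNK2B (0.27) was higher under TMM scaling. NOL6, also named in the paper, was at 76.1, 79.6 and 80.8 CPM with DMSO and 40.2, 33.9 and 33.0 CPM with AZD4573 (-1.14, SE 0.07, adjusted p = 4.6e-09). AZD4573 replicate 1 was again the highest treated library, and all 3 lay far below DMSO. RRP7A, the protein with which NOL6 pairs, fell less (-0.48), and PDCD11 (RRP5), a long RNA-binding protein that joins the processing of both subunits, was at -0.87.

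The Nop14 module held both a clear fall and the largest rise among the members under TMM scaling. EMG1, a pseudouridine methyltransferase of 18S rRNA, was at -1.12 and NOP14 at -0.70. NOC4L, which binds NOP14, had 33.5, 34.9 and 34.8 CPM with DMSO and 52.6, 52.2 and 49.3 CPM with AZD4573 (0.58, SE 0.05, adjusted p = 2.1e-07). Every treated library was above every DMSO library. Scaled to mitochondrial mRNAs, its value was -0.16 (adjusted p = 0.052), the 1 member not called lower there.

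The 9 other processome factors were the most mixed group, with 5 lower, 2 higher and 2 not called. UTP20, a very large scaffold protein, had 73.4, 79.8 and 79.1 CPM with DMSO and 32.2, 23.8 and 22.9 CPM with AZD4573 (log2 fold change -1.56, SE 0.10, adjusted p = 9.1e-09). Its treated libraries were the most variable of any member (SD 19.6% of the mean), with AZD4573 replicate 1 high, yet none came near DMSO. UTP11 (-1.21), NOL10 (-1.05), KRR1 (-0.73) and DCAF13 (-0.66) also fell.

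UTP25 and NOP9 moved the other way under TMM scaling, and both were negative with mitochondrial scaling (-0.19 and -0.37). UTP25 had 37.5, 38.3 and 40.2 CPM with DMSO and 54.4, 59.96 and 55.2 CPM with AZD4573 (0.55, SE 0.05, adjusted p = 7.5e-07). NOP9, an RNA-binding Pumilio-family protein, had 62.7, 66.8 and 67.2 CPM with DMSO and 84.6, 87.0 and 82.6 CPM with AZD4573 (0.37, SE 0.05, adjusted p = 8.3e-06). The groups did not overlap for either gene. WDR46 was 97.6 ± 0.956 CPM with DMSO and 96.7 ± 4.05 CPM with AZD4573 (-0.01, adjusted p = 0.80), and UTP23 62.7 ± 4.57 and 58.5 ± 4.82 CPM (SD, n = 3; -0.10, adjusted p = 0.19), with overlapping libraries in both.

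**Figure D2:**
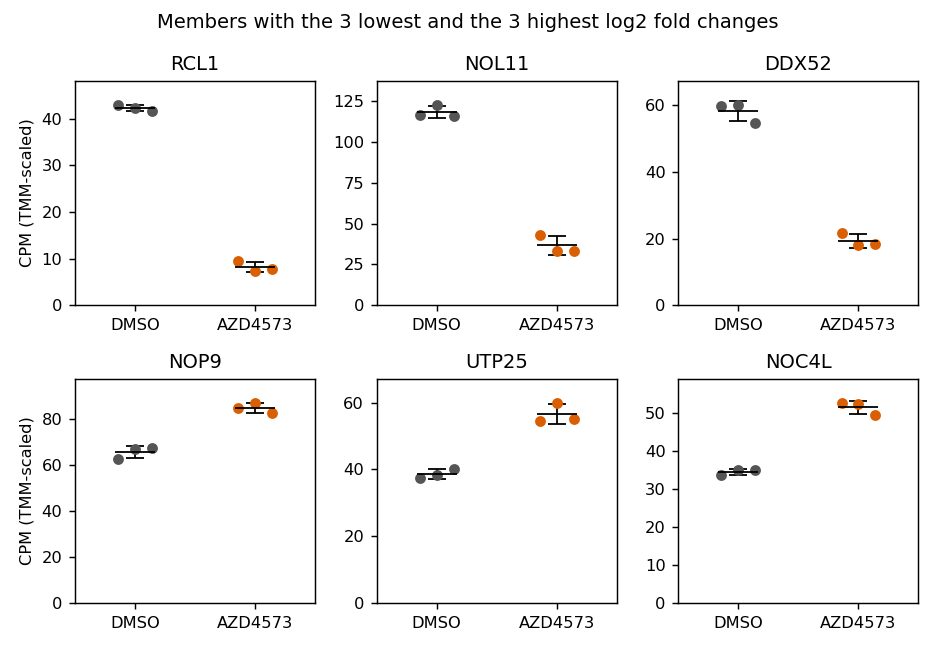
TMM-scaled CPM of the 3 members with the lowest (top) and the 3 with the highest (bottom) log2 fold changes in each of the 3 DMSO and 3 AZD4573 libraries, with mean and SD as black bars. RCL1 drops from about 42.3 to 8.24 CPM with no overlap, and NOC4L goes from 34.4 to 51.4 CPM, a rise that becomes -0.16 on the log2 scale when scaled to mitochondrial mRNAs.

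Enzymes that modify 18S rRNA differed in direction. DIMT1, which dimethylates adenosines near the end of 18S rRNA, fell (-1.07, 56.1 ± 0.634 to 26.8 ± 3.55 CPM), as did NAT10, the cytidine acetyltransferase (-0.65, 146 ± 2.79 to 92.9 ± 4.66 CPM; SD, n = 3). BUD23, the guanosine methyltransferase, was 148 ± 2.27 CPM with DMSO and 174 ± 2.46 CPM with AZD4573 (0.23, adjusted p = 1.0e-04), but -0.50 with mitochondrial scaling.

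Among the late pre-40S factors 7 of 9 fell. The atypical kinases RIOK1 and RIOK2 were at -1.35 and -1.12, and RIOK1 had 110, 115 and 111 CPM with DMSO against 47.1, 43.7 and 41.4 CPM with AZD4573 (SE 0.05, adjusted p = 1.4e-10). PNO1, which holds the endonuclease NOB1 in check, and RRP12, an export factor, fell 2.03-fold and 2.02-fold. NOB1, which makes the final cut of 18S rRNA and is the third member named in the paper, had 136, 130.9 and 129 CPM with DMSO and 76.0, 73.0 and 77.0 CPM with AZD4573 (-0.81, SE 0.04, adjusted p = 2.0e-09). The NOB1 libraries were close to each other within each group and did not overlap. TSR1 (-0.54) and LTV1 (-0.24) fell least.

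BYSL, which stays on the particle from nucleolus to cytoplasm, and TSR2, the chaperone of ribosomal protein eS26, were higher under TMM scaling, and were -0.51 and -0.61 with mitochondrial scaling. BYSL had 55.9, 51.2 and 50.8 CPM with DMSO and 59.0, 62.8 and 63.2 CPM with AZD4573 (0.23, SE 0.05, adjusted p = 0.0016). DMSO replicate 1 and AZD4573 replicate 1 were close, but the groups did not overlap. TSR2 was 84.7 ± 1.19 and 93.0 ± 3.67 CPM (SD, n = 3; 0.13, adjusted p = 0.016), and that call was lost without AZD4573 replicate 2 (adjusted p = 0.095), DMSO replicate 2 (0.075) or DMSO replicate 3 (0.084), with library size only (0.53) and without a filter (0.18).

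The replicate spread was small in DMSO, with a median SD over members of 2.91% of the mean (from 0.481% for WDR43 to 7.49% for WDR75), and wider with AZD4573, with a median of 5.39% (from 0.796% for LTV1 to 19.6% for UTP20). AZD4573 replicate 1 was the highest treated library for 29 of the 41 lower members (70.7%) and for 54.5% of the 6606 lower genes overall. The median log2 difference of the members from the DMSO mean was -0.81, -0.85 and -0.91 in AZD4573 replicates 1, 2 and 3. Without replicate 1 the members' median was -0.89, with 41 still lower.

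Levels per length allow a rough comparison between genes. The counts cover all transcripts of a gene, whereas the length is that of the canonical transcript alone. That transcript has 1132 of the 2510 annotated exon bases in IMP3 and 3498 of 21331 in NOL10, so the order depends on this choice. As CPM per kb of canonical transcript, the members spanned a 50.8-fold range with DMSO, from 2.60 for PWP2 (counted without its copy) to 132 for IMP3, with a median of 22.7. With AZD4573 the range was 120-fold, from 1.21 for PWP2 to 145 for BUD23, with a median of 13.5. Without PWP2 the ranges were 29.0-fold with DMSO, from 4.56 for UTP25, and 68.6-fold with AZD4573, from 2.11 for UTP15, and the SD of the log2 levels was 1.19 and 1.36. IMP3 (132 ± 7.64 CPM per kb), LTV1 (126 ± 1.93) and BUD23 (123 ± 1.89; SD, n = 3) led with DMSO. The ranges of mean ± SD overlapped between neighbours in this order. With AZD4573, BUD23 (145 ± 2.05) stood above LTV1 (107 ± 0.849), and both stood above IMP3 (58.8 ± 3.19). Within UTP-A, levels ran from 5.73 for UTP15 to 50.5 for WDR43 with DMSO.

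**Figure D3:**
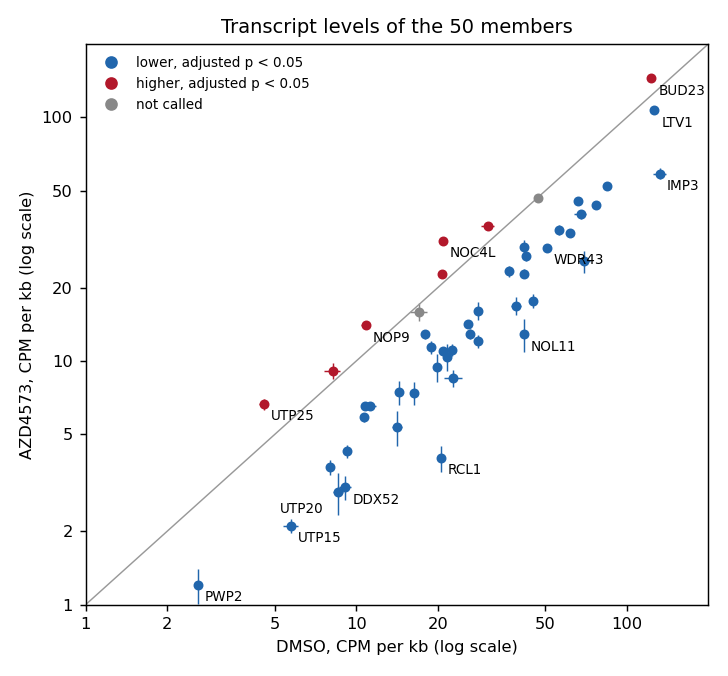
Mean level of each of the 50 members in DMSO (x axis) and AZD4573 (y axis), in TMM-scaled CPM per kb of canonical transcript on log axes, with SD over 3 libraries as bars and the line of equal level in grey. Most points lie below the line at every level, from PWP2 (2.60 to 1.21, counted without its copy) to IMP3 (132 to 58.8). The red points above the line fall below it when scaled to mitochondrial mRNAs.

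Members called lower tended to lie in longer genes than those called higher (median span 28245 against 10877 bases). The 2 members not called had a median span of 46549.5 bases. The gene span, from first to last annotated base, had a Spearman correlation of -0.37 (Pearson -0.41) with the log2 fold change over the 50 members, and of -0.026 over 13423 protein-coding genes tested. These are correlations across genes, which share the same libraries and are not independent replicates. The 25 shorter genes (2.02 to 23.8 kb) had a median log2 fold change of -0.73 and included 6 of the 7 called higher under TMM scaling, and the 25 longer ones (25.5 to 276 kb) had a median of -0.95 and included 1, UTP25. DDX10 (276 kb), NOL10 (128 kb) and UTP20 (107 kb) were the longest and fell by 1.41, 1.05 and 1.56 on the log2 scale. The next longest were UTP4 (99.8 kb, -0.87), RCL1 (93.0 kb, -2.36) and UTP23 (83.0 kb, -0.10, not called). Short genes also fell, among them UTP3 (2.02 kb) and IMP3 (9.62 kb), whose canonical transcripts have a single exon. The number of exons (Spearman -0.19), the transcript length (-0.03) and the DMSO level (0.16) had weaker relations over the members.

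**Figure D4:**
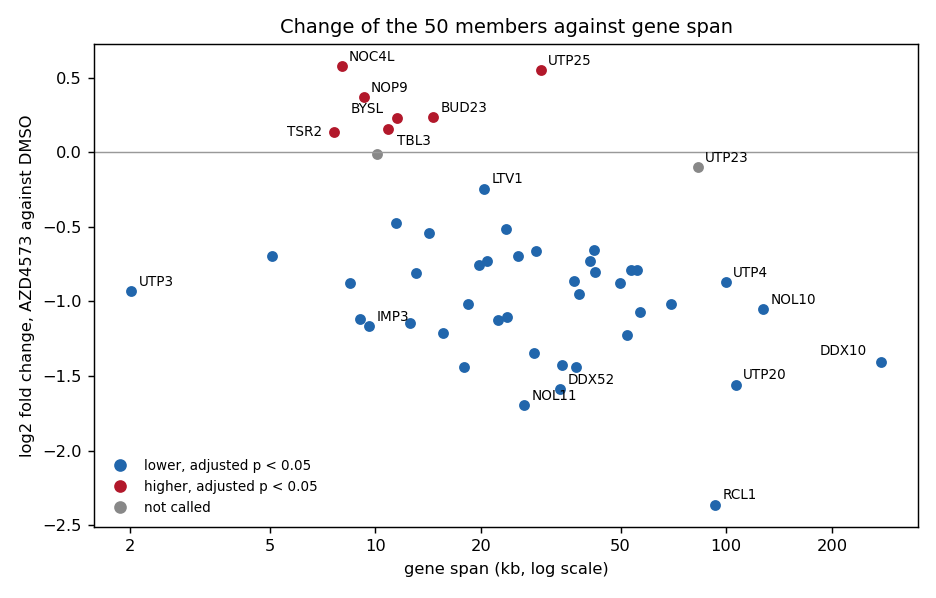
Log2 fold change (AZD4573 against DMSO, TMM scaling) of each member against the span of its gene in kb on a log axis, coloured by call. Of the 7 higher members, all of which turn negative when scaled to mitochondrial mRNAs, 6 lie under 20 kb, against 13 of the 41 lower members, and UTP25 (29.6 kb) is the exception.

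Some members share sequence or exons with other genes, which bears on their counts. Besides PWP2, copies at 95% identity or more cover 36.3% of the canonical BMS1 transcript, 51.6% of RRP7A and 72.1% of NOB1. The BMS1 copies held 12662 counts against 65043 for BMS1, those of RRP7A 10785 against 33714, and the NOB1 copy 13 against 42528. The methods give default parameters for RSEM, which ignore strand, and also name a directional library kit, whereas the labels name another kit. Whether strand was used in counting is therefore not known, and where it was not, reads of genes that overlap on opposite strands cannot be told apart. In 15 members at least 10% of the exon bases lie within exons of another gene, with EMG1 (66.7%, LPCAT3) and IMP3 (58.1%, SNX33) the most affected. Of the higher members, NOP9 (30.6%, CIDEB and LTB4R2), TBL3 (30%, NOXO1) and TSR2 (27.1%, FGD1) are among these 15, and NOC4L, UTP25, BYSL and BUD23 are not. Without the 15 genes, an alternative added after the data had been seen, the median of the remaining members relative to all genes was -0.97 in place of -0.89.

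Other assembly factors of the pathway, from lists that do not overlap the members, fell less at the median, though not gene by gene. Of 30 other small-subunit factors, 21 were lower and 4 higher, with a median of -0.47, and 11 passed a fold change of 1.5, all of them lower. AK6, the adenylate kinase of late pre-40S maturation, had 30.04, 28.1 and 27.0 CPM with DMSO and 11.7, 7.88 and 7.49 CPM with AZD4573 (-1.66, SE 0.13, adjusted p = 4.9e-08). NGDN had 65.7, 64.6 and 62.6 CPM with DMSO and 24.9, 22.6 and 23.5 CPM with AZD4573 (-1.44, SE 0.05, adjusted p = 9.7e-11). In both genes the treated libraries lay far below those with DMSO. CMSS1 had 83.3, 77.7 and 75.8 CPM with DMSO and 110, 104 and 112 CPM with AZD4573 (0.46, SE 0.05, adjusted p = 1.5e-06), but was at -0.28 with mitochondrial scaling. UTP14C had 0, 1.16 and 0 CPM with DMSO and 1.81, 3.11 and 0 CPM with AZD4573. Its libraries differed widely within each group, and it was not called (2.09, SE 1.16, adjusted p = 0.12, edgeR's quasi-likelihood test).

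Of 50 assembly factors of the 60S subunit, 38 were lower and 7 higher, with a median of -0.53, and 22 were lower at a fold change of at least 1.5, against 37 of the 50 members. The lowest values of this list were those of GNL2 (-2.06), RRP1 (-2.04), which the paper also names, and CEBPZ (-1.84). Among the members only RCL1 (-2.36) was lower than these. The 40S ribosomal proteins themselves, the cargo of this assembly line, went the other way under TMM scaling, with 32 of 33 higher and 0 lower (median 0.57), whereas with mitochondrial scaling 18 were lower and 0 higher (median -0.16). Relative to the median of all genes, the processome and 40S assembly members stood at -0.89 and the 40S ribosomal proteins at 0.55 under TMM scaling. The difference between these lists was not tested.

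**Figure D5:**
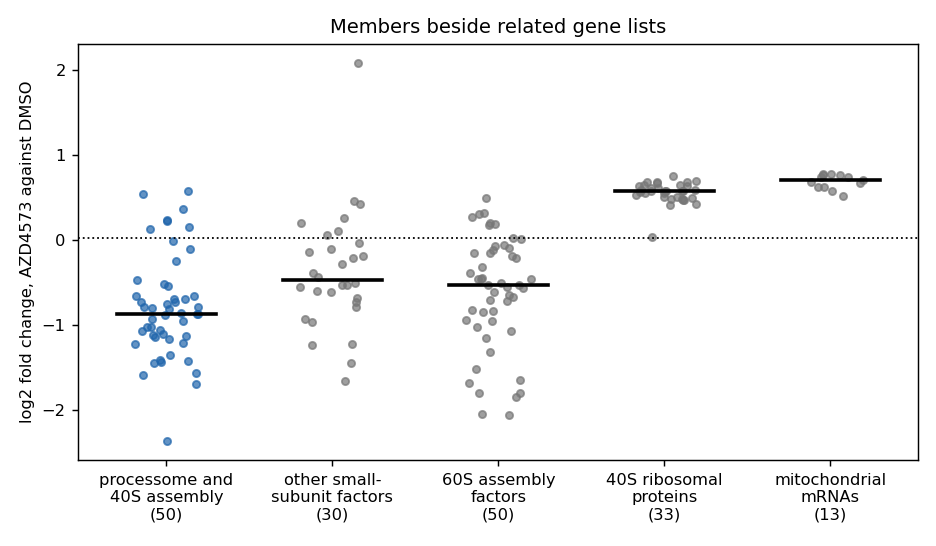
Log2 fold change (AZD4573 against DMSO, TMM scaling) of each gene in the 50 members (blue) and in 4 related lists (grey), with list medians as black bars and the median of all genes tested as a dotted line. Medians are -0.87, -0.47, -0.53, 0.57 and 0.71 from left to right, and that of the 40S ribosomal proteins turns to -0.16 when scaled to the mitochondrial mRNAs.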

How the data were processed

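Bulk RNA-seq of H9 cells covered 3 DMSO and 3 AZD4573 libraries, grouped by their labels. The labels describe poly(A) selection, whereas the supplemental methods describe rRNA depletion. Per the labels and methods, the authors trimmed reads with cutadapt 2.3, aligned them to GRCh38 (STAR 2.7.8a) and obtained expected counts from RSEM 1.3.3. The deposited expected counts are whole numbers without normalization, for 61546 entries, of which 5 are reporter sequences that were left out.

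The whole table was analysed in R 4.3.3 with edgeR 4.0.16: filter on low counts (minimum count 10), TMM normalization, quasi-likelihood test, and Benjamini-Hochberg adjustment over 17678 genes. CPM values are TMM-scaled, except for markers and the limit for a count of 0 (3 counts), which use library totals. The standard error was derived from the log2 fold change and the quasi-likelihood statistic. Log2 differences of single libraries used a prior count of 2. Gene positions, exons and canonical transcripts came from GENCODE release 44, copies from BLAST 2.17.0 (at least 95% identity over at least 100 bases, 30% of the transcript), and promoters from RefSeq. Figures were drawn with matplotlib 3.10.9. The procedure was tested on simulated data.

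All members are described by subcomplex. Values in each library are given for the 3 lowest and 3 highest log2 fold changes, the lowest and highest of each subcomplex of 4 or more genes, NOB1, NOL6 and DDX10 (named in the paper), and the 2 lowest and 2 highest other small-subunit factors. The members and lists were chosen with earlier results of these data known. The grouping into subcomplexes was written from general knowledge.

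Alternatives were RLE factors, library size only, mitochondrial mRNA scaling, no filter, at least 10 counts in every library, a replicate block, DESeq2 1.42.0, a fold change of 2, each library left out, and members left out that have a copy by BLAST or an annotated pseudogene or retrogene of their name. No library duplicated another of its group, since chi-square over the degrees of freedom was 5.59 to 21.2 for the pairs.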

Additional observations from a re-analysis of the deposited data

How the results depend on the processing

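Of 700 member values under the alternatives, 673 kept their direction and side of the threshold, and 41 members did so in every alternative. The 9 reversals were WDR46 (0.024 with at least 10 counts in every library, -0.039 to 0.016 when 1 library was left out, positive without AZD4573 replicate 3) and, scaled to mitochondrial mRNAs, BUD23 (-0.50), BYSL (-0.51), NOC4L (-0.16), NOP9 (-0.37), TBL3 (-0.58), TSR2 (-0.61) and UTP25 (-0.19), which left 0 members higher. TBL3 or TSR2, or both, also lost their calls with DESeq2 (6 members higher), with library size only and without a filter (5 in each). Mitochondrial scaling, which moves every gene alike, called 11878 genes lower and 2144 higher (9433 and 1769 at a fold change of at least 1.5). At a fold change of at least 2, 20 members were lower, and 2450 and 2643 genes were lower and higher. With at least 10 counts in every library 2 members were higher at a fold change of 1.5, and leaving out 1 library gave 0 to 1.

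The following are medians relative to all genes. With DESeq2 and without a filter, where more low-count genes raise the overall median, the members stood at -1.02 in both, UTP-A at -1.31 in both, UTP-B at -1.06 in both, U3 and Mpp10 at -1.04 and -1.03, UTP-C and RRP5 at -1.03 in both, the Nop14 module at -0.85 in both, BMS1 and RCL1 at -1.95 in both, other processome factors at -0.82 in both, rRNA-modifying enzymes at -0.81 in both and late pre-40S factors at -0.97 in both. With at least 10 counts in every library, the late factors stood at -0.79, U3 and Mpp10 at -0.86 and UTP-C at -0.85. Without the 12 members that have an annotated pseudogene or retrogene of their name, or a copy by BLAST, the late factors were at -1.04, other processome factors at -0.13, rRNA-modifying enzymes at -0.23 and UTP-C at -1.03. Without members that share exon bases, chosen after seeing the data, the values were -0.97 for the members, -1.45 for UTP-A, -1.05 for UTP-B, -0.84 for U3 and Mpp10, -1.03 for UTP-C, -0.88 for other processome factors, -0.23 for rRNA-modifying enzymes and -1.04 for the late factors. Leaving out 1 library put the late factors at -0.88 to -0.81.

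Same-numbered libraries did not deviate together (correlations -0.02, 0.04 and 0.03), so the numbers were not taken as pairs. With the replicate block, 41 members were lower and 7 higher, and the members' relative median was -0.89. With 3 libraries a group, the calls of TBL3 and TSR2 were at the limit, given the spread of their libraries. A change of similar size was called more firmly in BOP1, a 60S assembly factor (-0.16, adjusted p = 0.0020, edgeR's quasi-likelihood test).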
